A study of Mus musculus with 8 samples.

Results

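The transcription factors described here divide the intermediate and ventral neural tube into progenitor domains. In the spinal cord, neural progenitors along the dorsoventral axis are exposed to graded Sonic hedgehog from the floor plate and notochord and to retinoic acid from the neighbouring mesoderm. They answer with homeodomain and basic helix-loop-helix factors that repress each other across domain borders. Each domain later gives rise to its own neurons, which are interneurons of the V0 to V3 classes or motor neurons. *Dbx1*, *Dbx2*, *Nkx6-1*, *Nkx6-2*, *Nkx2-2*, *Olig2*, *Irx3*, *Evx1*, *Evx2* and *Prdm12* were listed, and were looked for by symbol among the rows of the value table. Of these 10 genes, 9 had a row, each with a single row that carried no other symbol. *Prdm12*, a zinc finger factor of the progenitors of V1 interneurons, was not matched to a row and was not analysed here.

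Expression was measured at Day 4 of N2B27 differentiation, a serum-free monolayer culture in which mouse ES cells take on a neural fate. *Sox3* null R1 cells, in which GFP replaces the only *Sox3* exon, gave 4 cultures, and a control R1 line that contains a conditional *Sox3* allele gave 4 cultures. Each differentiation batch, 1 and 2, held 2 cultures of either genotype, and each culture was read on its own Affymetrix mouse gene array. The labels call the genotypes Sox3 null and Sox3 positive, and the control is called wild type in the methods. As the genotypes are carried by different lines, the loss of *Sox3* and whatever else sets the lines apart cannot be told apart. The sources used here do not say whether either line is a single clone. *Sox3* itself had a log2 signal of 8.39, 8.56, 8.67 and 8.37 on the 4 null arrays, against 9.92, 9.84, 9.73 and 9.76 on the 4 control arrays, which fits the labels. The values are log2 signals of transcript clusters, and the medians of the 8 arrays over named rows lay between 7.63 and 7.70. The number of arrays limits the precision. A transcript cluster was called when its fold change between genotypes was 1.4 or more, which is 0.49 on the log2 scale, and its adjusted p from limma was 0.05 or less.

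*Dbx1* was lower in *Sox3* null progenitors, and was the only 1 of the 9 measured factors to be called. *Dbx1* encodes a homeodomain protein of the p0 progenitors, which lie midway along the dorsoventral axis, and is required for the V0 interneurons that arise there. Its transcript cluster (10563797) had a log2 signal of 10.27, 10.09, 9.75 and 9.82 on null replicates 1 to 4, against 11.25, 11.20, 11.05 and 11.01 on control replicates 1 to 4. The highest null array lay well below the lowest control array. The log2 signal averaged 9.98 ± 0.239 in null cells and 11.13 ± 0.116 in control cells (SD, n = 4 each). The log2 fold change was -1.15 (standard error, SE, 0.0615, 95% interval -1.28 to -1.01, adjusted p = 3.83e-05 from limma). The signal left in null cells was 45.1% of that in control cells. *Sox3* had a log2 fold change of -1.31 although its only exon is replaced, so signal left on the array need not be RNA left. How much of the *Dbx1* signal was background was not tested. Of the 23410 named transcript clusters, 0.431% were called in either direction and 0.111% were called lower in null cells. *Dbx1* ranked 1 by p and 2 by the size of its fall, after *Sox3*. The study named *Dbx1* as changed from these same arrays, so its call here is not independent evidence. The falls it gave for *Dbx1* and *Sox3* were larger than those here, more so for *Sox3*, and the reason was not tested. The study also reported lower *Dbx1* RNA by quantitative PCR in independent cultures, in whole null embryos and in null embryonic heads. On these arrays, which read a culture of many cells, fewer *Dbx1* positive cells and less *Dbx1* RNA per cell cannot be told apart. By immunohistochemistry the study counted significantly fewer DBX1 positive cells per field in null Day 4 cultures. It also described a reduced number of such cells in the spinal cord of null embryos. RNA per cell was not measured here.

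The fall of *Dbx1* was present in both differentiation batches. The log2 fold change was -1.05 in batch 1 and -1.24 in batch 2, and *Dbx1* was called by limma within each batch alone. The difference between batches was -0.19, with a 95% interval of -0.45 to 0.06 (adjusted p = 1 from limma). This interval leaves room for a fall that was somewhat larger in batch 2. In a plain linear model with an interaction term, in which no variance is shared between genes, the log2 fold change was the same and the adjusted p was 0.0583. The 5 nearest measured genes on each side of *Dbx1*, in the gene order of GRCm38.p6, did not share its fall. Their log2 fold changes ran from -0.20 for *Csrp3*, a muscle LIM protein gene, to 0.07 for *Prmt3*, an arginine methyltransferase gene. None of these 10 neighbours passed an adjusted p of 0.05 in limma.

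**Figure D1:**
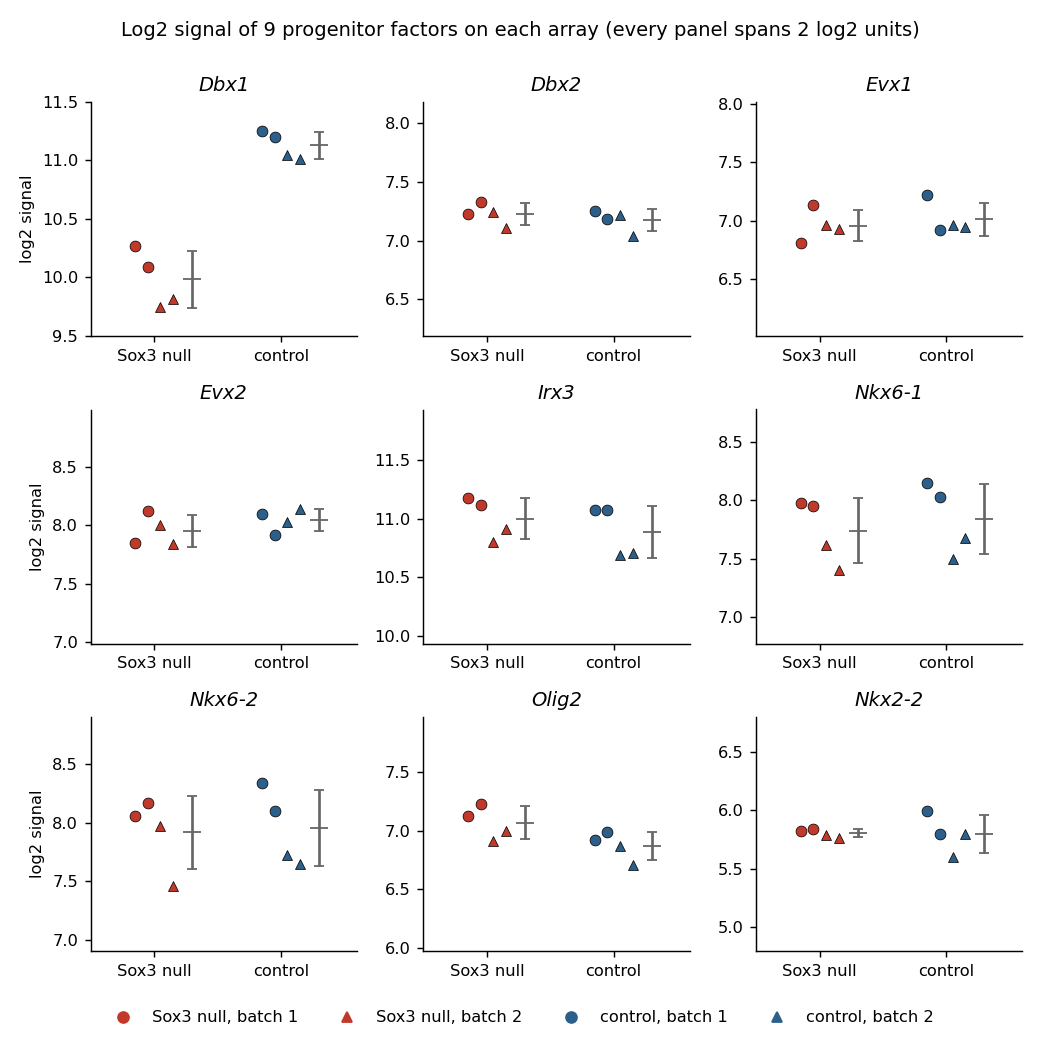
Log2 signal (vertical axis) of the 9 measured factors on each array, *Sox3* null on the left and control on the right. Circles are batch 1, triangles batch 2, grey marks the mean and SD of 4 arrays, and every panel spans the same number of log2 units. For *Dbx1* no null array reads above 10.27 and no control array below 11.01, whereas the genotypes overlap for the other 8 factors.

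The sequence before the *Dbx1* start is shown because *Dbx1* was the factor that was called, with those of its paralog *Dbx2* and of *Olig2*, which were not. The letters CATTGT, or ACAATG on the opposite strand, are a core of the sequences that SOX proteins bind and are printed in capitals. Each line holds the 250 bases before the start of the gene in RefSeq on GRCm38.p6, read 5′ to 3′ on the strand of the gene. *Dbx1* lies at chr7:49636836-49637085 on the minus strand, *Dbx2* at chr15:95654772-95655021 on the minus strand and *Olig2* at chr16:91225300-91225549 on the plus strand.
Dbx1: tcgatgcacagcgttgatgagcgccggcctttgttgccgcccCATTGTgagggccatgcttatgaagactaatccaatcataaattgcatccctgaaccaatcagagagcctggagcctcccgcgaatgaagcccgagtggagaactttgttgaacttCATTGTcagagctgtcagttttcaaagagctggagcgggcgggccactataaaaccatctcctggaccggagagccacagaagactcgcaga
Dbx2: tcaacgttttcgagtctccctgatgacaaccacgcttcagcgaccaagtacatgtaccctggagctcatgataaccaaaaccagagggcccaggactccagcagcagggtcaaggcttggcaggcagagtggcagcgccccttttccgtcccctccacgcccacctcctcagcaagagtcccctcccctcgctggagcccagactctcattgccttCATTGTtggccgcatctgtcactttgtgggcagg
Olig2: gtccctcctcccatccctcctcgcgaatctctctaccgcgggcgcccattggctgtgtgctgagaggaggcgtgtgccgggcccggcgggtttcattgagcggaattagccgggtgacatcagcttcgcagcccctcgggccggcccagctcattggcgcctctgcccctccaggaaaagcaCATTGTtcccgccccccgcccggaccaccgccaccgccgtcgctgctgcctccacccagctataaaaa
Promoters were matched for all 10 listed genes, *Prdm12* included. CATTGT was found on either strand in 3 of them, those shown, and in 10.7% of 32851 promoters of the same length. *Dbx1* held 2 copies, which begin at -208 and -92 from the start, and 0.834% of all promoters held 2 or more. The related letters CTTTGT, or ACAAAG on the opposite strand, were found in *Dbx1* and *Dbx2* among the 10 and in 16.5% of all promoters. *Dbx1* held 2 copies of these as well, at -222 and -105, as did 1.74% of all promoters, counting those with 2 or more. These matches describe letters in a short window, and binding was not analysed here. The study did test binding, by chromatin immunoprecipitation. It reported significant SOX3 enrichment at several sites in or near *Dbx1* in Day 4 cells, and at an intronic site in embryonic heads. Whether any of those sites lies in the window shown was not examined here.

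*Dbx2*, the paralog of *Dbx1*, is expressed in a broader band of intermediate progenitors that includes the *Dbx1* domain. Its transcript cluster (10431839) had a log2 signal of 7.23, 7.33, 7.24 and 7.11 on the null arrays and 7.25, 7.18, 7.22 and 7.04 on the control arrays. The genotypes overlapped. Its log2 fold change was 0.05 (95% interval -0.08 to 0.18, adjusted p = 0.788 from limma), which excludes a change of 1.4-fold in either direction. The change of *Dbx1* was set directly against that of *Dbx2* by taking the difference of their log2 signals on each array. This difference was 2.76 ± 0.218 on null arrays and 3.96 ± 0.0892 on control arrays (SD, n = 4 each). The change of *Dbx1* minus that of *Dbx2* was -1.20 (two-sided exact permutation test, p = 0.0286, the smallest that 4 against 4 arrays allow). Since *Dbx1* was already known to change on these arrays and the other changes lay near 0, these differences largely restate the fall of *Dbx1*. The change of *Dbx1* minus that of the other factor ran from -1.34 for *Olig2* to -1.05 for *Nkx6-1*, and no null array overlapped a control array (exact p = 0.0286 each, 0.0286 when adjusted over the 8 pairs). When genotypes were exchanged only within batches, which allows 36 splits, each of the 8 had an exact p of 0.0556, the smallest this design allows, so that it cannot pass 0.05.

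*Evx1* and *Evx2* encode homeodomain proteins of the V0 interneurons that *Dbx1* expressing progenitors produce, and *Evx1* sets the identity of the ventral V0 group. *Evx1* (10538310) had a log2 signal of 6.81, 7.13, 6.96 and 6.93 on the null arrays and 7.22, 6.92, 6.96 and 6.95 on the control arrays. Control replicate 1 stood above the other 3 control arrays, which lay close together. On the log2 scale *Evx1* differed by -0.05 between genotypes (95% interval -0.23 to 0.12, adjusted p = 0.851 from limma), and this value was 0.01 without control replicate 1. *Evx2* (10483789) had a log2 signal of 7.85, 8.12, 8.0 and 7.84 on the null arrays and 8.10, 7.92, 8.03 and 8.14 on the control arrays, again with overlap. Its log2 fold change was -0.09 (95% interval -0.26 to 0.07, adjusted p = 0.675 from limma). *Evx1* is also a gene of the primitive streak, and 7 of the 8 measured markers of streak and mesoderm had a signal below that of the median transcript cluster. Of these 8, 7 had a log2 fold change below 0, with a median of -0.14, and none passed. *Hand1*, a basic helix-loop-helix gene of the lateral mesoderm, had -0.32 (limma adjusted p = 0.236) and *Wnt3*, a ligand gene needed to form the streak, had -0.16 (adjusted p = 0.27). *Eomes*, a T-box gene of the streak, had -0.26 (adjusted p = 0.388), which was -0.60 in batch 1 and 0.07 in batch 2, and *Mixl1*, a homeobox gene of the streak, had -0.14 (adjusted p = 0.69).

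*Irx3*, an Iroquois homeodomain gene, is expressed dorsal to the motor neuron progenitors and opposes *Olig2* at that border. *Irx3* (10580577) had a log2 signal of 11.18, 11.12, 10.80 and 10.91 on null replicates 1 to 4 and 11.08, 11.08, 10.69 and 10.71 on control replicates 1 to 4. Within each batch both null arrays read above both control arrays, but across batches the genotypes overlapped. The genotypes differed by 0.11 on the log2 scale (95% interval 0.00 to 0.22, unadjusted p = 0.0469, adjusted p = 0.372 from limma), so that it did not pass over all genes. *Olig2* (10436823), the basic helix-loop-helix factor of motor neuron and oligodendrocyte progenitors, had a log2 signal of 7.13, 7.23, 6.91 and 7.0 on null arrays and 6.92, 6.99, 6.87 and 6.71 on control arrays. It too was higher on both null arrays within each batch, and its log2 fold change of 0.19 was the highest of the 9 factors. Its 95% interval was 0.07 to 0.32 and it missed the threshold over all genes (unadjusted p = 0.00587, adjusted p = 0.151 from limma). In all, 3 of the 9 factors had both null arrays on the same side of both control arrays in batch 1 and again in batch 2, namely *Dbx1*, *Irx3* and *Olig2*, as did 12.1% of all named transcript clusters. The same 3 had an unadjusted p under 0.05, beside 13.1% of all. The 4 null and 4 control arrays did not overlap for 1 of the 9, *Dbx1*, and for 4.60% of all.

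*Nkx6-1* and *Nkx6-2* encode related homeodomain repressors of the ventral progenitors. *Nkx6-1* opposes *Dbx2* at the dorsal limit of its domain, and *Nkx6-2* reaches further dorsally, to the border with the *Dbx1* domain. *Nkx6-1* (10531790) had a log2 signal of 7.98, 7.95, 7.62 and 7.40 on the null arrays and 8.15, 8.03, 7.5 and 7.68 on the control arrays. *Nkx6-2* (10568805) had 8.06, 8.17, 7.97 and 7.46 on the null arrays and 8.34, 8.10, 7.72 and 7.65 on the control arrays. For both genes the genotypes overlapped, and for *Nkx6-2* the null arrays of batch 2 lay well apart from each other. The log2 fold change was -0.10 for *Nkx6-1* (95% interval -0.24 to 0.05, adjusted p = 0.591 from limma) and -0.04 for *Nkx6-2* (95% interval -0.26 to 0.18, adjusted p = 0.921). *Nkx2-2* (10488366), the homeodomain factor of the most ventral progenitors beside the floor plate, had a log2 signal of 5.82, 5.84, 5.79 and 5.76 on null arrays and 5.99, 5.80, 5.60 and 5.80 on control arrays. Its log2 fold change was 0.00 (95% interval -0.14 to 0.14, adjusted p = 0.998 from limma).

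**Figure D2:**
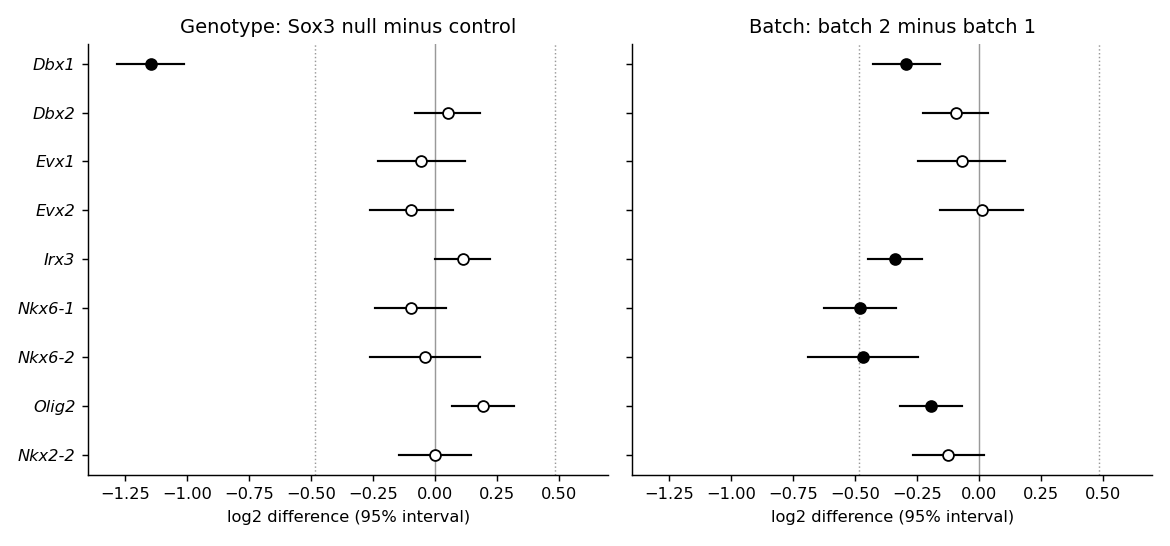
Log2 difference of the 9 factors between *Sox3* null and control cells (left) and between batch 2 and batch 1 (right), from 8 arrays. Points are limma's estimates, lines 95% intervals, filled points have an adjusted p of 0.05 or less, and dotted lines lie at 1.4-fold. *Dbx1* is the only filled point for genotype, at -1.15, and 5 factors are filled for batch, all below 0.

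Apart from *Dbx1*, the 8 measured factors lay close to no change. Of these, 4 had a log2 fold change above 0 and 4 below 0, with a median of -0.02 and a range from -0.10 to 0.19, beside a median of 0.00 over all 23410 named transcript clusters. The 95% intervals of all 8 excluded a change of 1.4-fold in either direction, as did 98.1% of the intervals of all transcript clusters. The factors differed in where their signal lay on the array. *Dbx1* was brighter than 85.3% of the named transcript clusters and *Irx3* than 88.8%, whereas the other 7 were brighter than 24.5%, for *Nkx2-2*, to 53.9%, for *Evx2*. Signals of different probes do not order the genes by their RNA. How much of the signal of the dimmer 7 was background was not tested, so their intervals describe the signal and may understate a change in RNA.

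Several factors differed between the differentiation batches in both genotypes, and they were lower in batch 2. *Nkx6-1* had the largest such difference, with a log2 signal of 7.51 in batch 2 and 7.97 in batch 1 in null cells, and 7.59 in batch 2 and 8.09 in batch 1 in control cells. Its log2 difference was -0.48 (95% interval -0.62 to -0.34, adjusted p = 6.64e-04 from limma). *Nkx6-2* had a log2 difference of -0.47 (adjusted p = 0.00792), *Irx3* -0.34 (adjusted p = 0.00104), *Dbx1* -0.29 (adjusted p = 0.00695) and *Olig2* -0.19 (adjusted p = 0.0326). For these 5 factors both arrays of batch 2 lay below both arrays of batch 1 within each genotype. In limma 5 of the 9 factors were lower in batch 2 and none was higher at an adjusted p of 0.05 or less, compared with 9.35% of all named transcript clusters that were lower and 20.2% that differed in either direction. *Olig2* passed narrowly, and it had an adjusted p of 0.0677 when all rows of the table were fitted. *Dbx2*, *Evx1*, *Evx2* and *Nkx2-2* did not pass, with log2 differences of -0.09, -0.07, 0.01 and -0.12. In all, 8 of the 9 estimates lay below 0, beside 49.1% of all transcript clusters. The genotype effect on the 9 factors did not differ between batches at an adjusted p of 0.05 in limma, nor did that on any other transcript cluster (0.00% of 23410, and 3.05% at an unadjusted p under 0.05). None of the 9 had an unadjusted p under 0.05 for this term, and the smallest was 0.125, for *Dbx1*.

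Factors that border or overlap the same domains were taken from a list of 18 genes, of which 16 were measured. Of these, 3 rose in *Sox3* null cells, 1 fell and 12 did not pass at an adjusted p of 0.05, beside 1.15% higher and 0.393% lower among all named transcript clusters, and the median log2 fold change was 0.08. *Olig3*, a basic helix-loop-helix gene of the dorsal progenitors, fell. It had a log2 signal of 8.29, 8.29, 8.87 and 9.44 on null arrays, against 8.94, 9.10, 9.79 and 9.64 on control arrays. The null arrays lay below the control arrays within each batch, with a log2 fold change between genotypes of -0.65 (SE 0.106, limma adjusted p = 0.0125). *Olig3* was also the only gene of this list to be called. *Pax7* and *Pax3*, paired box genes of the dorsal neural tube, rose with log2 fold changes of 0.35 (SE 0.0538, adjusted p = 0.00868) and 0.29 (SE 0.0553, adjusted p = 0.0266), both below the fold threshold. *Irx1*, from the other Iroquois cluster, rose with 0.32 (SE 0.0685, adjusted p = 0.0489). *Irx5*, which neighbours *Irx3*, had 0.12 (adjusted p = 0.44), and *Pax6*, which is graded across the intermediate and ventral progenitors, had 0.12 (adjusted p = 0.279). *Olig1*, the neighbour of *Olig2*, had -0.10 (adjusted p = 0.44).

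Factors linked to the neurons that leave these domains were taken from a list of 20 genes of ventral interneurons and motor neurons, of which 18 were measured. How much of their signal came from neurons was not tested. None had a limma adjusted p of 0.05 or less. Their log2 fold changes ran from -0.26 to 0.14 around a median of -0.03, with 6 above 0 and 12 below. A signal above the median transcript cluster was found for 4 of the 18. *Pax2*, a paired box gene of V0, V1 and dorsal inhibitory interneurons, had the smallest p, at a log2 fold change of -0.26 (SE 0.0661, limma adjusted p = 0.0949). It had a log2 signal of 8.43, 8.67, 8.24 and 8.40 on null arrays, against 8.85, 8.90, 8.49 and 8.56 on control arrays. Both null arrays lay below both control arrays within each batch. *Lhx5*, a LIM homeodomain gene of V0 and V1 neurons, had -0.23 (adjusted p = 0.224) and *Lhx4* had -0.17 (adjusted p = 0.248). *Gata2* lay above 0, with 0.13 (adjusted p = 0.30). *Lhx1*, a relative of *Lhx5*, had -0.03 (adjusted p = 0.91) and *En1*, which marks V1 neurons, had -0.10 (adjusted p = 0.58).

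**Figure D3:**
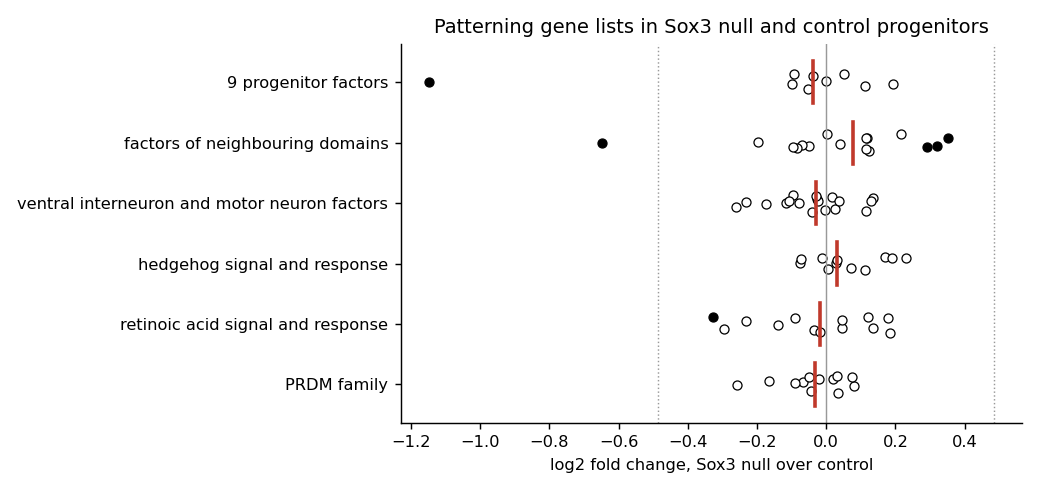
Horizontal axis, the log2 fold change (*Sox3* null over control) of the 9 measured factors and of the measured members of 5 gene lists, a circle for each gene. Filled circles passed an adjusted p of 0.05, red bars are list medians and dotted lines lie at 1.4-fold. *Dbx1* at -1.15 and *Olig3* at -0.65 lie beyond the lower dotted line, and the ventral neuron list has no filled circle.

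Genes of the signals that pattern these domains were examined next. Of 11 measured hedgehog genes none passed for genotype, and their median log2 fold change was 0.03. *Gas1*, a co-receptor gene, had the smallest p and a log2 fold change of 0.23 (limma adjusted p = 0.0822). *Shh*, the ligand gene, had 0.07 (adjusted p = 0.83 from limma), *Ptch1*, the receptor gene that hedgehog induces, had 0.17 (SE 0.0666, adjusted p = 0.295) and *Gli1*, the target most often read as its response, had -0.07 (adjusted p = 0.712). Between batches, 5 of these 11 genes were lower in batch 2 and none was higher, beside 9.35% lower and 20.2% different in either direction among all named transcript clusters. *Gli1* had a log2 difference of -0.56 (adjusted p = 2.81e-04) and *Ptch1* one of -0.36 (adjusted p = 0.00328). *Nkx2-9*, a ventral homeobox gene next to the floor plate, had a log2 difference of -1.11 between batches and of 0.12 between genotypes (adjusted p = 0.73). Lower signal in batch 2 was not limited to ventral or hedgehog genes. Of the 16 measured neighbouring factors, 8 were lower in batch 2 and 1 was higher at an adjusted p of 0.05 or less. The dorsal genes *Pax3* and *Pax7* were lower, by log2 differences of -0.43 and -0.39, and the dorsal gene *Olig3* was higher, by 0.78. Of 13 measured retinoic acid genes, *Cyp26a1*, which encodes an enzyme that degrades retinoic acid, fell in null cells and 12 did not pass. Among all named transcript clusters, 0.393% were lower and 1.15% higher in null cells at an adjusted p of 0.05 or less. *Cyp26a1* had a log2 signal of 6.86, 6.75, 7.66 and 7.72 on null arrays, against 7.23, 7.15, 8.01 and 7.90 on control arrays. Its log2 fold change in null cells was -0.33 (SE 0.0557, limma adjusted p = 0.0154), under the fold threshold, and its log2 signal was higher by 0.82 in batch 2 than in batch 1. On the same scale *Dhrs3*, a retinoid reductase gene that retinoic acid induces, had -0.30 (adjusted p = 0.117). Of the receptor genes, *Rarg* had -0.23 (adjusted p = 0.128) and *Rarb*, which retinoic acid also induces, had 0.18 (adjusted p = 0.20). At an adjusted p of 0.05 or less in limma, 4 of these 13 genes were lower in batch 2 and 2 were higher.

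The 5 transcript clusters with 1 symbol whose profile over the 8 arrays was closest to that of *Dbx1* were those of *Sox3*, *Vgll3*, *Mir127*, *Rnase1* and *Ppp1r1b*. Closeness was the root mean square difference of log2 signals, each centred on its own mean over the 8 arrays, and 21788 transcript clusters were compared. It was 0.219 for *Sox3*, 0.225 for *Vgll3*, a cofactor gene of TEAD factors, 0.301 for *Mir127*, an imprinted microRNA gene, 0.302 for *Rnase1*, a secreted ribonuclease gene, and 0.316 for *Ppp1r1b*, a phosphatase inhibitor gene. None of the other 8 progenitor factors was among them, which follows from their changes near 0, as the signals were centred but not scaled. *Vgll3* had a log2 signal of 10.68, 10.62, 9.65 and 10.06 on null arrays, against 11.43, 11.40, 10.96 and 10.93 on control arrays. Like *Dbx1* it was lower in null cells within each batch and lower in batch 2 within each genotype. The likeness is a description of 8 arrays that differ in genotype and batch.

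**Figure D4:**
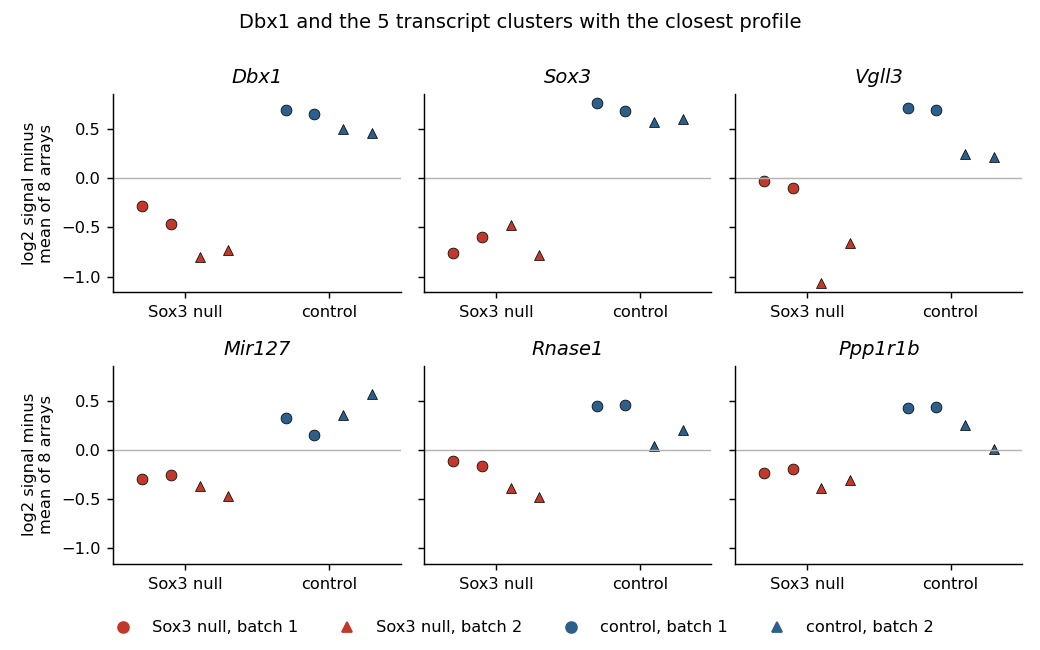
Log2 signal minus the mean of the 8 arrays (vertical axis) for *Dbx1* and the 5 transcript clusters with the closest profile, *Sox3* null arrays on the left and control arrays on the right. Circles are batch 1 and triangles batch 2. In all 6 panels the 4 null arrays lie below the 4 control arrays.

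Markers of the cell types the cultures could hold were read on the same arrays. Their counts stand beside 1.15% higher and 0.393% lower among all named transcript clusters at an adjusted p of 0.05 or less. All 8 neural progenitor markers had a signal above the median transcript cluster, and the log2 of their summed signal lay between 15.38 and 15.39 on null arrays and between 15.18 and 15.22 on control arrays. All 8 had a log2 fold change above 0, and *Nes*, which encodes nestin, rose by 0.49 (adjusted p = 0.00947 from limma), opposite in sign to *Dbx1*. Of 8 neuronal markers, *Map2*, a microtubule protein gene, rose by 0.47 (adjusted p = 0.0132) and 7 did not pass. Their log2 fold changes were above 0 for 7 of the 8, with a median of 0.21. The exception was *Stmn2*, a microtubule regulator gene and the brightest of the list, with -0.17 (adjusted p = 0.317). The summed signal, to which *Stmn2* adds most, lay between 12.65 and 12.76 on null arrays and between 12.59 and 12.84 on control arrays. Of 7 pluripotency markers, *Nanog* fell with -0.37 (adjusted p = 0.0464), and 5 of the 7 lay below 0 with a median of -0.10, with summed signals of 12.61 to 13.13 on null arrays and 12.87 to 13.10 on control arrays. The summed signal of the streak and mesoderm markers lay between 10.27 and 10.95 on null arrays and between 10.28 and 11.10 on control arrays. *Foxf1* adds most to this sum, and its log2 difference between batch 2 and batch 1 was -1.11. None of 4 measured oligodendrocyte lineage markers passed, and 3 of them lay below 0, opposite in sign to *Olig2*. *Mbp*, a myelin protein gene, had -0.15 (adjusted p = 0.247), *Pdgfra*, a receptor gene of oligodendrocyte precursors, had 0.10 (adjusted p = 0.365) and *Sox10*, which defines that lineage and the neural crest, had -0.08 (adjusted p = 0.675). Their summed signal lay between 8.99 and 9.13 on null arrays and between 9.02 and 9.23 on control arrays. Of 7 endoderm markers *Cxcr4*, a chemokine receptor gene also used by neural cells, rose by 0.41 (adjusted p = 0.0154), whereas the other 6 did not pass and all lay below 0, and the median of the 7 was -0.07. The summed signal of the list, to which *Cxcr4* adds most, lay between 11.62 and 11.88 on null arrays and between 11.39 and 11.51 on control arrays. The methods describe ES cells kept on irradiated mouse embryonic fibroblasts and the labels gelatine coated plates. Of 7 fibroblast markers *Thy1* fell with -0.51 (adjusted p = 0.00525) and *Twist1* rose by 0.49 (adjusted p = 0.00929), and the median was -0.01. The summed signal of this list lay between 10.33 and 10.65 on null arrays and between 10.40 and 10.66 on control arrays. The part of these markers in the fall of *Dbx1* was not tested.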

How the data were processed

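RNA from 4 *Sox3* null and 4 control Day 4 cultures was hybridised to Affymetrix GeneChip mouse gene arrays, 1 array for each culture. The deposited values are log2 signals for 35556 transcript clusters, normalized and summarised by the authors. Partek is listed in the submitters' processing notes. The normalization, the way probes were summarised and the genome build were not given in the sources used here, so background correction could not be varied. The genes were named from the platform annotation, updated through RefSeq on GRCm38.p6, which gave 21789 rows with 1 symbol and 1621 with several, and 12146 rows were unnamed here.

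A linear model of genotype and batch with moderated variances was fitted to 23410 named rows (limma 3.58.1, R 4.3.3). The p-values were adjusted over all of these rows by the method of Benjamini and Hochberg. The steps were tested on simulated arrays. The methods used an analysis of variance that included batch, and plain linear models of this kind were among the alternatives, with other sets of rows, variance estimates, treatments of batch, normalizations, each batch alone and each array left out. Differences between factors were tested by exact permutation over arrays, for 8 pairs in place of the 9 planned because *Prdm12* had no matched row. Where a listed gene had several rows, the brightest was used. Promoters came from RefSeq.

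The members and gene lists were chosen with earlier results of these data known. The named genes were all members, the 5 closest profiles to *Dbx1*, *Sox3*, the called genes, and genes of the smallest p, at most 4 further ones from each pathway list and up to 2 from each marker list. *Csrp3*, *Prmt3*, *Irx5*, *Olig1*, *Lhx1*, *En1*, *Shh*, *Gli1*, *Nkx2-9*, *Eomes*, *Mixl1*, *Foxf1*, *Stmn2* and *Sox10* fall outside this rule or were singled out after their values were seen. Of the cell type and pathway lists, genes with no matched row were left out. The study describes the cultures of a genotype as biological replicates that came from 2 experiments, and the labels do not say how separate the cultures within a batch were, so that p-values measure the spread between these cultures.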

Additional observations from a re-analysis of the deposited data

Results flagged for a closer look

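The log2 signal of *Evx1* on control replicate 1, 7.22, lay apart from those of the other control arrays, 6.92, 6.96 and 6.95. The gap to the nearest array was 0.875 of the range of the group, above the critical value of Dixon for 4 samples. It was 1 of 18 groups examined, 9 factors in 2 genotypes, and chance sets apart about 1 group in 20. The cause was not tested.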

How the results depend on the processing

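The log2 fold change of *Dbx1* kept its sign in all 25 alternatives and its call in 24. It ran from -1.20 to -1.11 without any 1 array. In the plain linear model with interaction the value was -1.15 and the adjusted p 0.0583, so that 0 factors were called, a fit that leaves fewer degrees of freedom and no shared variance. With the replicate number as a block the log2 fold change of *Dbx1* was -1.15 and 103 rows were called in all, against 101. Same-numbered arrays deviated together in batch 2 (correlation 0.305 over rows) but not in batch 1 (-0.324). With 2 arrays of each genotype in a batch, this check gives only 1 value per batch. It cannot decide whether the numbers pair the cultures. The difference of change between *Dbx1* and *Dbx2* ran from -1.30 to -1.12 without any 1 array, each with an exact p of 0.0571, the smallest that 3 against 4 arrays allow. With genotypes exchanged only within batches, a choice made after seeing the data, it was -1.20 with an exact p of 0.0556, again the smallest possible. Among factors that were not called, the sign turned for *Evx1* without *Sox3* null replicate 1 or control replicate 1 (range without any 1 array -0.108 to 0.0179). It turned for *Nkx6-2* in batch 2 alone (0.0248) and without any 1 of 2 arrays (range -0.154 to 0.0491). It turned for *Nkx2-2* with array medians subtracted (-0.0054), in batch 1 alone (-0.071) and without any 1 of 4 arrays (range -0.0541 to 0.0528). The batch difference of *Evx2* turned without any 1 of 4 arrays (range -0.0401 to 0.0773). That of *Olig2* kept its sign, but its adjusted p was 0.0742 when arrays were quantile normalized again and up to 0.10 without 1 array, so that 4 or 5 factors passed for batch. The number of all rows called was 62 over the whole table, 58 with batch as a random block, 29 without the batch term, 22 in the plain linear model, 1 with its interaction, 18 in batch 1 alone and 23 in batch 2 alone.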

Other observations

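Other genes of the PRDM family, to which *Prdm12* belongs, were read on the same arrays. Of 13 listed, 12 were measured and none reached an adjusted p of 0.05 (limma), with a median log2 fold change of -0.03. *Prdm8*, a family member expressed in several populations of the neural tube, had the smallest p. It had a log2 signal of 8.23, 8.14, 8.04 and 8.20 on null arrays, against 8.36, 8.43, 8.48 and 8.37 on control arrays. No null array overlapped a control array, and its change on the log2 scale was -0.26 (SE 0.0586, limma adjusted p = 0.0638).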
